A study of Sus scrofa domesticus with 4 samples.

Results

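The genes described here are antiviral sensors and interferon-induced effectors, a set of 10 genes: IFIH1, DDX58, EIF2AK2, MX1, MX2, ISG15, OAS1, OAS2, RSAD2 and USP18. They were found on the array through the RefSeq accession that each probe carries, and 8 of the 10 genes had at least 1 probe that the pig RefSeq annotation names so. No probe used here mapped to DDX58 or OAS1, which are not analysed here. Probes whose accession the annotation table does not list stayed unnamed and may include probes of OAS1. The 8 genes carried 19 probes of the 43603 on the array and are 8 of the 3029 genes with a name. IFIH1 (NM_001100194) and RSAD2 (NM_213817) had 2 probes each, MX1 (NM_214061) and OAS2 (NM_001031796) had 5 each, USP18 (NM_213826) had 2, and EIF2AK2 (NM_214319), MX2 (NM_001097416) and ISG15 (NM_001128469) had 1 each.

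RNA came from the anterior lobe of the pituitary of 8 mature gilts (females before a first litter) of the cross Large White x Polish Landrace. The pregnant group was 4 naturally bred gilts taken on days 15 to 16 of gestation with conceptuses present, and the cyclic group was 4 unmated gilts taken on days 15 to 16 of the estrous cycle, staged by their ovaries. Each of 4 two-colour arrays held 1 pregnant and 1 cyclic animal, so an array is 1 independent pair. By the samples' dye fields the pregnant animal was in Cy3 on arrays 1 and 3 and in Cy5 on arrays 2 and 4. The text of the labelling protocol words a single orientation instead, and the values it would give are stated where a direction turns on it. The authors' deposited log2 values follow the dye fields on all 4 arrays. The whole lobe was extracted, so the arrays average over all of its cell types.

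Cells recognise viral double-stranded RNA through cytosolic sensors such as IFIH1 and DDX58, which signal through the mitochondrial protein MAVS to switch on interferon genes. Secreted interferon binds receptors on the same and neighbouring cells and, through JAK kinases and a transcription factor complex that holds STAT2 and IRF9, raises a large programme of antiviral genes, to which the sensors themselves belong. In the pig the conceptuses themselves release interferons into the uterus around the time of attachment. The question the design puts to the genes described here is whether their transcripts in the pituitary differed between pregnant and cyclic gilts at this stage.

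Of the 8 measured genes, 6 stood above 0 in pregnant over cyclic animals and 2 below. IFIH1, MX1, ISG15, OAS2, RSAD2 and USP18 were above 0, and EIF2AK2 and MX2 below, taking the brightest probe of each gene. The estimates ran from -0.14 to 0.47 on the log2 scale, with a median of 0.32, beside a median of -0.01 over all 25196 probes tested. The median of the 8 genes was 0.14 without array 2, 0.18 without array 3 and 0.10 with a single dye orientation. An estimate above 0 was found for 47.6% of all probes. The median of the 8 genes was 0.12 on array 1, 0.37 on array 2, 0.59 on array 3 and -0.15 on array 4, a standard deviation of 0.32, while the median of all probes stayed between -0.02 and 0.01. No gene passed the test across all probes: limma with Benjamini-Hochberg adjustment called 0 of 16 member probes at an adjusted p of 0.05 and 0 of 25196 probes in all (0%), with 2019 probes at an unadjusted p under 0.05. The other tool run, a separate-channel fit in limma, called 4 probes, of which 0 were members. The smallest adjusted p of a member probe was 0.605. In a whole anterior lobe, a difference in the number of cells of a type and a difference in RNA per cell cannot be told apart.

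**Figure D1:**
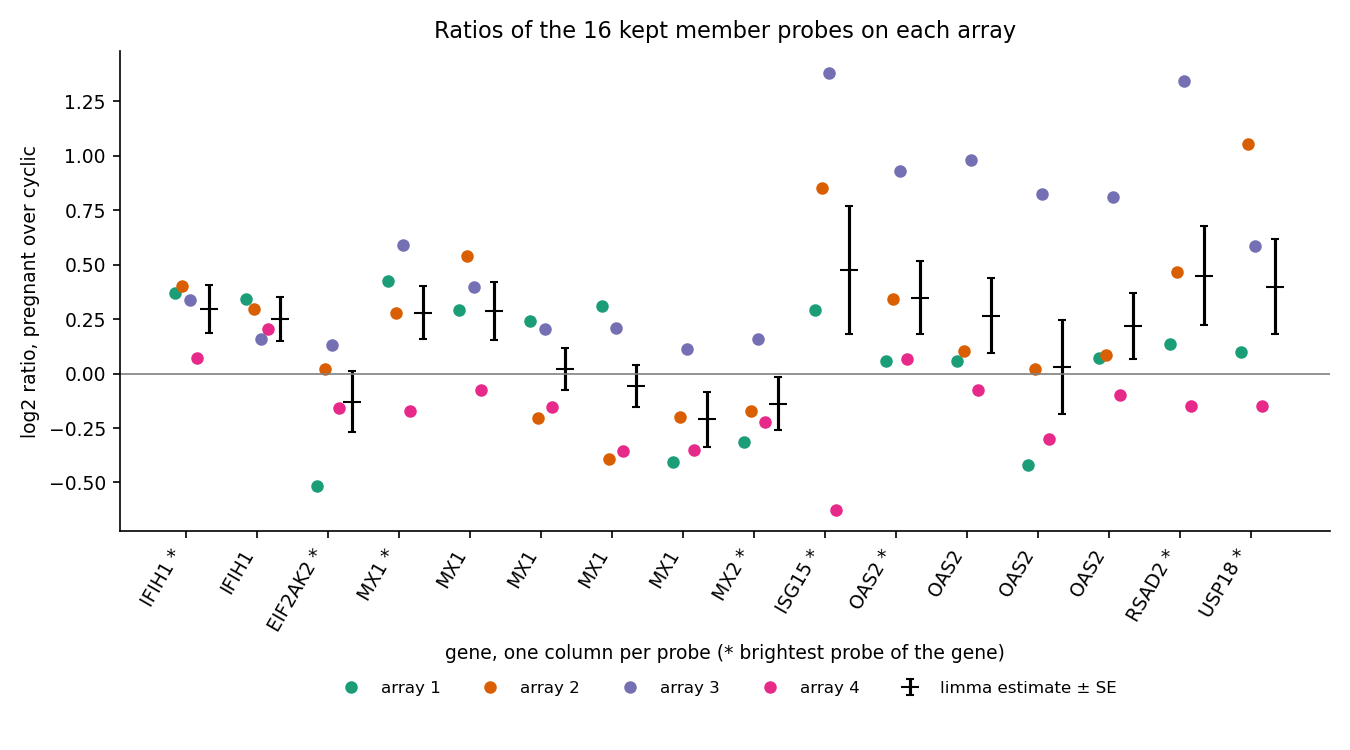
Log2 ratio of pregnant over cyclic (y axis) for each of the 16 member probes above the background filter (x axis, 1 column per probe, the brightest probe of a gene starred), with 1 coloured point per array and the limma estimate ± SE in black. Array 3 is highest for 10 of the 16 probes, and array 4 is below 0 for 13 of them.

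IFIH1, also called MDA5, is the helicase that senses long double-stranded RNA, and the ratio of its brightest probe varied least between arrays (SD 0.15) among the brightest probes of the 8 genes. Its brightest probe gave log2 ratios of 0.37, 0.40, 0.34 and 0.07 on arrays 1 to 4. The second probe gave 0.34, 0.30, 0.16 and 0.21. Both probes were thus above 0 on all 4 arrays, a pattern shared by 3 of 16 member probes and by 6.79% of all probes. The estimates were 0.30 ± 0.11 (SE, n = 4 arrays) and 0.25 ± 0.10. As a ratio the brightest probe stood at 1.23-fold, with a 95% interval from 1.02 to 1.48. Its unadjusted p was 0.0380 and its adjusted p 0.605 in the limma fit. IFIH1 was the 1 gene of the 8, and this the 1 probe of the 16, past an unadjusted p of 0.05 with a fold of at least 1.2, a rule met by 7.85% of all probes (842 higher and 1137 lower) and, on the higher side, by 3.34%. That share is near the background and says nothing particular about the set. In normalised log2 intensity the pregnant animals stood at 9.47, 9.82, 9.88 and 9.71 and the cyclic animals at 9.10, 9.41, 9.54 and 9.64. Within each array the pregnant animal was higher, but the 2 groups overlapped. With background parameters taken from all spots the estimate was 0.17, and with a single dye orientation 0.06.

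EIF2AK2, also called PKR, is the kinase that halts translation by phosphorylating eIF2 alpha when it binds double-stranded RNA. Its single probe had ratios of -0.52, 0.02, 0.13 and -0.16 on arrays 1 to 4. Array 1 was the lowest and the other 3 lay on both sides of 0. The estimate was -0.13 ± 0.14, and the 95% interval of the fold ran from 0.72 to 1.17, which spans 1. Without array 1 the estimate changed sign, to 0.03. The pregnant animals were at 9.65, 10.47, 10.44 and 10.01 in log2 intensity and the cyclic animals at 10.17, 10.45, 10.31 and 10.16, with overlap.

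OAS2 makes 2-5A oligomers, a signal that leads to RNA decay, when it binds double-stranded RNA. Its brightest probe had ratios of 0.06, 0.34, 0.93 and 0.07 on arrays 1 to 4, all above 0. Array 3 stood far above the others, and the value there lay at the percentile 99.4 of all probes of that array. The estimate was 0.35 ± 0.17, a fold of 1.27 with a 95% interval from 0.95 to 1.71 (limma adjusted p = 0.611). Pregnant animals were at 12.64, 12.78, 12.81 and 12.39 in log2 intensity and cyclic animals at 12.59, 12.44, 11.88 and 12.32. The cyclic animal of array 3 was the lowest of the 8, and the groups overlapped. The other 3 probes above the filter shared the sign, at 0.27, 0.03 and 0.22, and all 3 were highest on array 3, at 0.98, 0.82 and 0.81. They were below 0 on array 4, at -0.08, -0.30 and -0.10. Without array 3 the brightest probe stood at 0.13, the others stood at 0.04, -0.28 and 0.03, and without array 1 the brightest stood at 0.57. The fifth OAS2 probe was well above background in 2 pregnant and 1 cyclic channel, was left out of the fit, and had ratios between -0.08 and 0.19. OAS2 and OAS1 lie next to each other in the RefSeq annotation, with 0 protein-coding genes between them.

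MX1 is a dynamin-like GTPase that traps viral nucleocapsids, and its 5 probes differed in sign. The brightest probe had ratios of 0.42, 0.28, 0.59 and -0.17 on arrays 1 to 4. The next had 0.29, 0.54, 0.40 and -0.08. Both were above 0 on arrays 1 to 3 and below 0 on array 4, with estimates of 0.28 ± 0.12 and 0.29 ± 0.13 (limma adjusted p = 0.605 and 0.607). The 3 other probes were at 0.02, -0.06 and -0.21. For 2 of these 3 the ratio followed the dye: values of 0.24, -0.20, 0.20 and -0.15 in one and 0.31, -0.39, 0.21 and -0.36 in the other put green above red on 4 of 4 arrays. With a single orientation of the dyes the second of these would read 0.32, with an unadjusted p of 0.0148. The dimmest of the 5 had -0.40, -0.20, 0.11 and -0.35. A direction for MX1 therefore depends on the probe, with 3 of 5 above 0, and their mean was 0.06. Which part of the transcript each probe matches was not examined.

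By the brightest MX1 probe, the pregnant animals were at 15.23, 15.06, 15.09 and 14.99 in log2 intensity and the cyclic animals at 14.80, 14.78, 14.50 and 15.16. The pregnant animals were tightly grouped (SD 0.10, n = 4) and 3 of the 4 cyclic animals lay below all of them. The cyclic animal of array 4 was above 3 of the pregnant animals. These levels are not corrected for dye. With the mean of each dye taken out, that cyclic animal stood at 15.05 and the pregnant animals at 15.11, 15.17, 14.97 and 15.10. Without array 2 the estimate of this probe was 0.17, and with background parameters from all spots it was 0.40, with an unadjusted p of 0.00186 and a limma adjusted p of 0.545.

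MX2 is the paralogue of MX1 and its neighbour, with 0 protein-coding genes between them in the annotation. Its 1 probe had ratios of -0.32, -0.17, 0.16 and -0.22 on arrays 1 to 4. It was below 0 on 3 of 4 arrays, while the brighter MX1 probes were below 0 on array 4 only. The signs thus differed on arrays 1 and 2 and were the same on arrays 3 and 4. The estimate was -0.14 ± 0.12, with a 95% interval of the fold from 0.74 to 1.12. The animals of array 1 were both the highest, at 7.98 for the pregnant and 8.29 for the cyclic one in log2 intensity, while the other 6 lay between 6.85 and 7.28. The estimate was -0.02 without array 1, -0.26 without array 3, -0.28 with median centring, -0.02 with background parameters from all spots, -0.23 from the scanner software's processed signals, and 0.06 with a single dye orientation.

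RSAD2, or viperin, is a radical SAM enzyme of the endoplasmic reticulum and lipid droplets that makes a chain-terminating nucleotide. Its brighter probe had ratios of 0.14, 0.47, 1.34 and -0.15 on arrays 1 to 4. Array 3 alone was above 1, at the percentile 99.7 of that array, and array 4 was below 0. The estimate was 0.45 ± 0.23, a fold of 1.37 with a 95% interval from 0.92 to 2.02 (limma adjusted p = 0.611). Pregnant animals were at 7.69, 8.43, 8.11 and 7.47 in log2 intensity and cyclic animals at 7.55, 7.96, 6.77 and 7.62. The cyclic animal of array 3 was again the lowest and the pregnant animal of array 2 the highest. Without array 3 the estimate was 0.15, without array 2 it was 0.30 and without array 1 it was 0.75. With a background offset of 10 in place of 50 the estimate was 0.59, and from the scanner software's processed signals, which also were not loess-normalized, it was 0.70. The authors' deposited table gives 2.33 on array 3. The second RSAD2 probe was well above background in 0 pregnant and 1 cyclic channel, and no fold is given for it.

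ISG15 is the ubiquitin-like protein that interferon induces and that is then coupled to other proteins, and its estimate was close to that of RSAD2. Its ratios were 0.29, 0.85, 1.38 and -0.62 on arrays 1 to 4. Arrays 2 and 3 lay at the percentiles 97.5 and 99.7 of their arrays and array 4 at the percentile 1.82. The estimate of 0.47 ± 0.29 was thus no larger than the spread between arrays, an SD of 0.86. As a fold it was 1.39, with a 95% interval from 0.84 to 2.31 (limma unadjusted p = 0.162, adjusted p = 0.642). Pregnant animals were at 12.85, 13.38, 13.20 and 12.48 in log2 intensity and cyclic animals at 12.56, 12.53, 11.82 and 13.10. The highest was pregnant and the lowest cyclic, but the pair of array 4 was reversed. The estimate was 0.11 without array 2, 0.20 without array 3, 0.75 without array 1 and 0.84 without array 4.

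USP18 removes ISG15 from its targets and damps signalling from the type I interferon receptor. Its brighter probe had ratios of 0.10, 1.05, 0.59 and -0.15 on arrays 1 to 4. Arrays 2 and 3 were high, at the percentiles 98.9 and 97.6, and arrays 1 and 4 were on either side of 0. The estimate was 0.40 ± 0.22, a fold of 1.32 with a 95% interval from 0.90 to 1.93 (limma adjusted p = 0.622). In log2 intensity the pregnant animals were at 11.37, 11.03, 10.18 and 10.10 and the cyclic animals at 11.27, 9.98, 9.59 and 10.25. Both animals of array 1 were higher than all others, as for MX2. Without array 2 the estimate was 0.10 and without array 4 it was 0.70, and with a single dye orientation it was -0.05. The second USP18 probe, well above background in 2 pregnant and 1 cyclic channel, had ratios of 0.15, 0.36, 0.04 and -0.10.

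**Figure D2:**
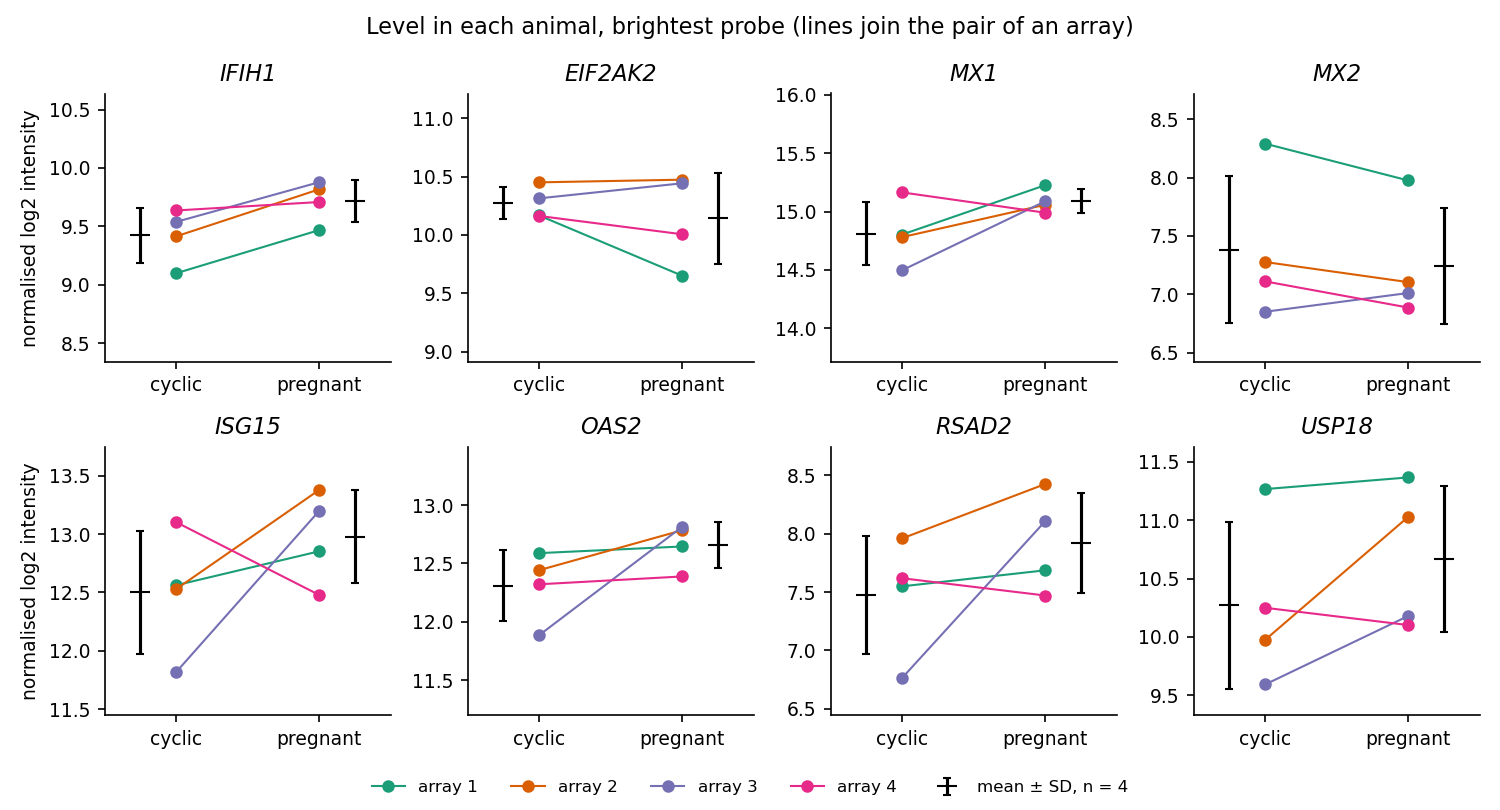
Normalised log2 intensity (y axis) of the brightest probe of each of the 8 genes in each animal, cyclic at the left and pregnant at the right, with a line joining the 2 animals of an array and the mean ± SD (n = 4) of each group beside them. All panels span the same number of log2 units, and the groups overlap in each of the 8 panels. The levels are not corrected for dye, and each group holds both dyes.

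The levels of the 8 genes thus overlapped between the groups in every case: 0 of 8 genes had all 4 pregnant animals above all 4 cyclic animals, beside 1.07% of all probes. The p-values here rest on 4 pairs of different animals. In the main fit they use the spread between pairs left after the dye term, which limma moderates with the spread of all fitted probes. Levels are not set against each other between genes, since each probe has its own response. The median SD between arrays was 0.37 over the 8 genes against 0.27 over all probes. The members were also brighter, with a median log2 intensity of 10.34 against 8.51, and these SDs include the dye effect. MX2 at 0.21 and IFIH1 lay below the median SD of all probes. ISG15 at 0.86, RSAD2 at 0.65 and USP18 at 0.53 varied most, and IFIH1 at 0.15 least.

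Members also resembled each other from animal to animal to unequal degrees. After the mean of each dye was taken from every probe, the mean of the 8 genes was highest in the pregnant animal of array 2, at 0.39 above its average, and lowest in the cyclic animal of array 3, at -0.46. The other animals lay between -0.14 and 0.18, cyclic and pregnant intermixed. Across the 8 animals the Pearson correlation of OAS2 with RSAD2 was 0.87, of ISG15 with RSAD2 0.86 and of ISG15 with OAS2 0.81. The 28 pairs had a median of 0.37, beside 0.03 over all pairs of named genes, and ran from -0.80 for IFIH1 with MX2 to 0.87. The correlation of single genes with the mean of the 8, of which each is a part, was 0.94 for OAS2, 0.89 for ISG15, 0.86 for RSAD2 and 0.82 for USP18. It was 0.73 for MX1 and 0.44 for MX2, but 0.11 for IFIH1 and -0.00 for EIF2AK2. These are descriptions over 8 animals that share arrays in pairs, and the dye means rest on 4 animals each. Without the pregnant animal of array 2 and the cyclic animal of array 3, the values over 6 animals were 0.81 for OAS2 and USP18. They fell to 0.45 for ISG15, 0.14 for RSAD2 and 0.26 for MX1. The 2 animals were picked as those farthest from the median of the members' mean. Dropping such extremes can itself lower a correlation, so no conclusion is drawn from the fall. For MX2 the value rose to 0.72, and for IFIH1 and EIF2AK2 it was -0.33 and -0.27.

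Of 2397 other named genes, the pattern over the 8 animals was most like the members' mean for TNFRSF12A, a receptor of the TNF family, at a Pearson correlation of 0.92 (Spearman 0.90). BLNK, a B-cell linker protein, followed at 0.91 (Spearman 0.90), then IGFBP6, an IGF-binding protein, at 0.90 (Spearman 0.76), LGALS9, a galectin, at 0.90 (Spearman 0.86) and ANGPTL7, an angiopoietin-like secreted protein, at 0.90 (Spearman 0.95). Without the 2 animals farthest from the median these became 0.95, 0.88, 0.63, 0.91 and 0.85. They are the highest of many, and 5% of those genes reached 0.58 or more. TNFRSF12A hardly varied in level, from -0.06 to 0.05 around its average on the log2 scale.

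Upstream of the members, the receptors gave small values in both directions. Of 12 listed interferons and receptors 6 were measured, with a median of 0.10 (all probes -0.01), and 4 had an estimate above 0. IFNGR2, the second chain of the interferon gamma receptor, had ratios of 0.32, 0.25, 0.34 and 0.19 and an estimate of 0.27 ± 0.10 (unadjusted p = 0.0336, limma adjusted p = 0.605). It was the 1 gene of this list past the unadjusted rule, which 7.85% of all probes met. For the type I interferon receptor, IFNAR1 stood at 0.10 ± 0.10, and IFNAR2 at -0.24 ± 0.23 with array 1 at -1.02.

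The adaptors and kinases that carry the sensors' signal did not share the members' sign. Of 26 listed 12 were measured, 5 above 0 and 7 below, with a median of -0.09. MAVS, through which IFIH1 signals, stood at -0.21 ± 0.12, with -0.73 on array 2. DHX58, the third helicase of the sensor family, stood at -0.11 ± 0.11. RELA, a subunit of NF-kappaB, was the 1 gene past the unadjusted rule, beside 7.85% of all probes. It stood at -0.28 ± 0.11 with ratios of -0.00, -0.74, 0.10 and -0.47 (limma adjusted p = 0.605).

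Downstream of the receptors 9 of 16 listed genes were measured, 6 above 0 and 3 below, with a median of 0.06. STAT2 stood at 0.06 ± 0.11, a sign that 2 of its 4 further probes shared, and IRF9, its partner, at 0.00 ± 0.12, with 0.59 on array 3 and -0.37 on array 4. IRF7, the factor that amplifies interferon production, had ratios of -0.68, -1.24, -0.16 and -0.61 and an estimate of -0.68 ± 0.16. It passed the unadjusted rule on the lower side, with a limma adjusted p of 0.605.

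Genes on the list of other interferon-induced genes lay mostly on the members' side. Of 50 listed 18 were measured, and 16 were above 0, beside 47.6% of all probes, with a median of 0.24. The list leaves out genes counted with the adaptors and with receptor signalling, of which 5 of 12 and 6 of 9 were above 0. Among those left out, IRF7 stood at -0.68 and DHX58 at -0.11. By array, from 1 to 4, their medians were 0.34, 0.18, 0.33 and -0.00. Genes past the unadjusted rule numbered 4 higher and 0 lower, of which 3 are described here. Over all 25196 probes 842 (3.34%) passed it on the higher side and 1137 on the lower. IFI30, a lysosomal thiol reductase, stood at 0.38 ± 0.10, PSMB9, an immunoproteasome subunit, at 0.27 ± 0.10 and IFIT3, a partner of the RNA-binding IFIT1, at 0.27 ± 0.11. IFI30 and PSMB9 were above 0 on 4 of 4 arrays, and IFIT3 was below 0 on array 2, at -0.12. The limma adjusted p was 0.605 for each of them. The list and the members were chosen with earlier results of these data known, so their shared sign is no independent evidence. With background parameters from all spots 13 of the 18 were above 0, without array 2 there were 13, and with a single dye orientation 14.

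Of the enzymes that couple ISG15 to proteins, 0 of the 5 other listed genes had a named probe. Of 11 listed genes around the phosphorylation of eIF2 alpha, the step EIF2AK2 acts on, 3 were measured, 1 above 0 and 2 below, with a median of -0.18 and none past the unadjusted rule.

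**Figure D3:**
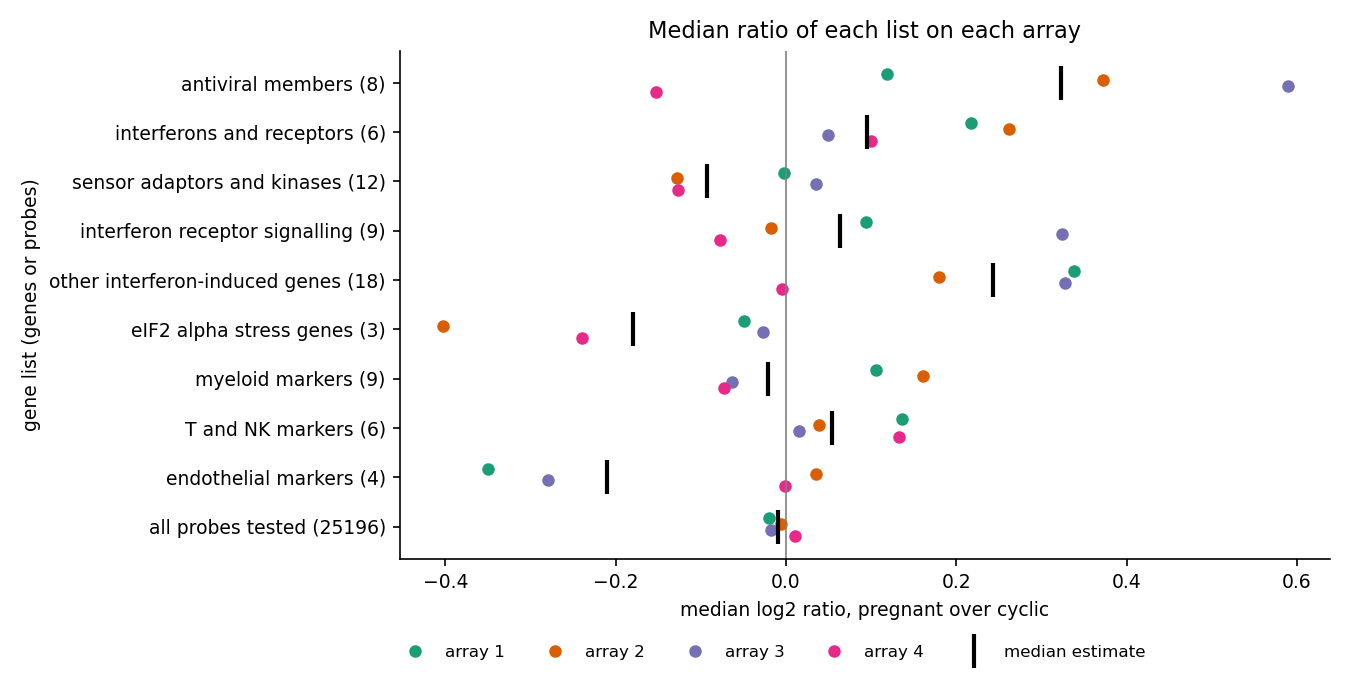
Median log2 ratio of pregnant over cyclic (x axis) of each gene list (y axis, number of genes or probes in brackets), with 1 coloured point per array and a black bar for the median estimate over arrays. The members and the other interferon-induced genes lie right of 0 on arrays 1 to 3, with array 4 at -0.15 and near 0, while all probes together stay between -0.02 and 0.01.

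Defining genes of the hormone cells of the anterior lobe were bright, with 9 of 12 listed measured and well above background in every channel. They leaned lower in pregnant animals, with 7 of 9 below 0, a median of -0.31 and array medians of -0.55, 0.35, -0.29 and -0.09. The unadjusted rule was passed by 2 of them on the lower side, beside 1137 of all 25196 probes. The share of probes well above background ran from 50.5% to 66.6% over the 8 channels. Oxytocin, a posterior lobe marker, was also well above background in all 8 channels. Among markers of cells that respond to or carry interferon genes, 9 of 12 myeloid markers were measured, 3 above 0, with a median of -0.02 and array medians of 0.11, 0.16, -0.06 and -0.07. Their summed level ran from 7997 to 13869 in pregnant and from 8698 to 13325 in cyclic animals, in intensity units. Of 10 T and NK cell markers 6 were measured, 3 above 0, with a median of 0.05, summing to between 2752 and 3946 in pregnant and between 2905 and 4423 in cyclic animals. Both pairs of ranges overlapped. The T and NK sum rested mostly on GZMB, at 11.34 in log2 intensity, while the other markers measured lay between 6.53 and 7.85. CD79A, the 1 B-cell marker of 5 measured, stood at -0.69 ± 0.24, and 0 of 5 general white blood cell markers had a named probe. Of 6 endothelial markers 4 were measured, with a median of -0.21, of 6 stromal markers 4, with a median of -0.15, and of 6 folliculostellate and stem cell markers 3, with a median of 0.01. Markers of the intermediate or posterior lobe had a median of -0.06 over 3 measured. That median was the value of GFAP, well above background in 2 pregnant and 2 cyclic channels. On arrays 1 to 4 PCSK2 had ratios of 1.43, -0.55, -0.82 and 1.56, and oxytocin -0.67, -0.62, 0.02 and -0.16. No neutrophil or red blood cell markers were measured. The part of these cell types in the members' values was not tested.

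**Figure D4:**
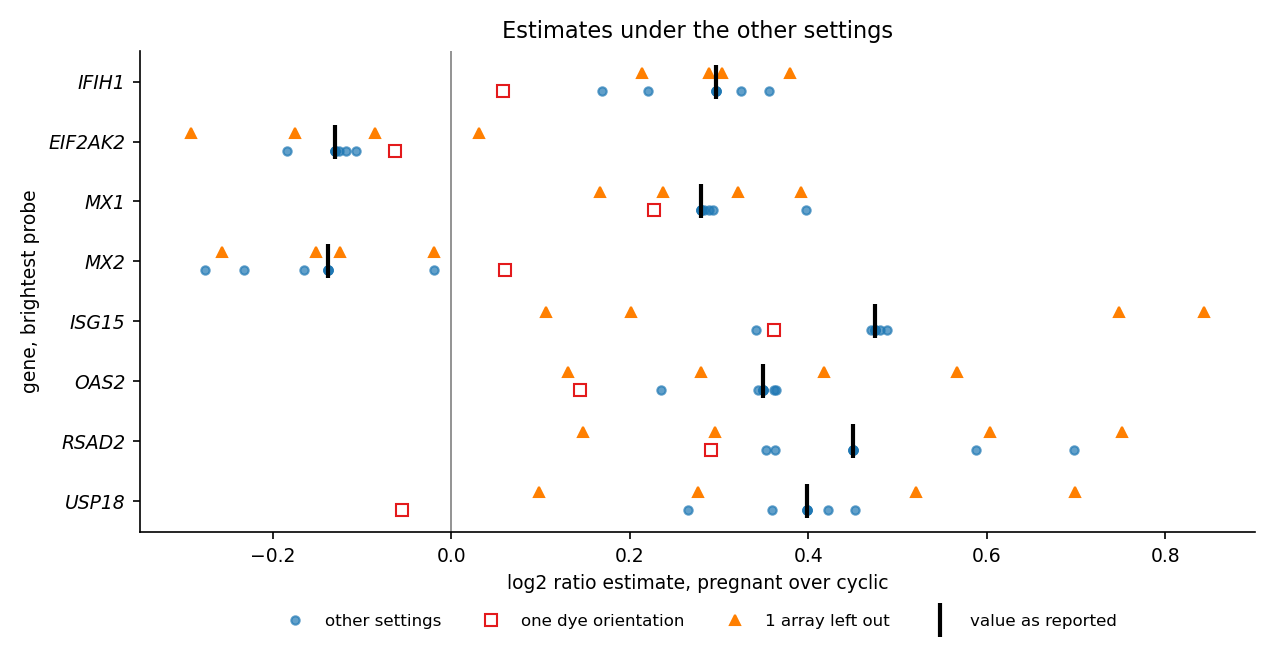
Estimated log2 ratio of pregnant over cyclic (x axis) of the brightest probe of each gene (y axis): the reported value as a black bar, other ways of preparing the values as blue points, a single dye orientation as an open red square and fits with 1 array left out as orange triangles. IFIH1, MX1, ISG15, OAS2 and RSAD2 stay right of 0 in each of these fits, USP18 in each but that with a single dye orientation, EIF2AK2 crosses 0 without array 1, and MX2 crosses it with a single dye orientation. The separate-channel fit, the fit without a dye term and the changed background filters equal the black bar.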

How the data were processed

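The file headers name Agilent Feature Extraction 10.7.3.1 as the scanner software. Median spot and background intensities were taken from the deposited scanner files, beside the software's own processed intensities, already background-subtracted and dye-normalized per the file headers. A deposited table by the authors gives log2 values whose making is not given in the sources used here. Each of its 43553 singly spotted probes matched the processed signal of pregnant over cyclic to within 0.001. The median foreground was used, since no mean foreground is in the scanner files used here.

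The analysis ran in R 4.3.3 (limma 3.58.1, jsonlite 2.0.0). Background was corrected by normexp (offset 50, parameters without outlier spots), and ratios were normalized by loess (span 0.3, control spots at weight 0). Outlier spots (95 to 221 per array) were dropped, replicate spots averaged, and ratios turned to pregnant over cyclic. The filter asked for a signal well above background in 4 or more of the 8 channels and kept 25203 probes, of which 7 had too few values to fit. Every probe was a feature in lmFit and eBayes with a dye term, adjusted by Benjamini-Hochberg over 25196 probes. Missing spots were not imputed. Levels per animal come from the same ratios after Aquantile normalization. They keep each probe's dye effect, except where the mean of each dye is said to be taken out. The fit was tested on simulated data. Probes were named through the RefSeq annotation of Sscrofa11.1, and 6700 had 1 symbol. The 4 arrays lay on 1 slide.

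The members, the related lists and the cell type markers were chosen with earlier results of these data known. The text names all members and, of each list, at most 5 genes of lowest p past the unadjusted rule, with STAT2, IRF9, IFNAR1, IFNAR2, MAVS and DHX58. The list of most like genes holds the 5 named non-members of highest Pearson correlation. Some genes that this rule names are not reported here.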

Additional observations from a re-analysis of the deposited data

Results flagged for a closer look

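One OAS2 probe, the second brightest of its 5, had a ratio of 0.98 on array 3 while the other 3 arrays lay between -0.08 and 0.10, a gap of 0.83 of the whole range. Of 52 sets of 4 values tested this was the 1 whose farthest value passed Dixon's 95% limit, which chance passes in about 5% of sets.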

How the results depend on the processing

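Precision is limited by the 4 arrays, and 3 of the 19 member probes were too dim to fit. The count of member genes above 0 was 6 of 8 under every alternative run, except without array 1, where it was 7. Their median, reported as 0.32, ran from 0.10 with a single dye orientation to 0.42 without array 1. It was 0.14 without array 2, 0.18 without array 3 and 0.25 with the mean of a gene's probes. The standard deviation of the array medians was also 0.32, too wide to tell such values apart. No member probe passed an adjusted p of 0.05 in any of the 208 values from alternatives (adjusted p from 0.260 to 1.00). Of these 208, 197 kept the reported sign. The separate-channel fit, the fit without a dye term and the stricter or absent background filter returned the same member estimates. In those alternatives neither a sign nor the count of genes above 0 could change. With background parameters from all spots, 2 MX1 probes turned, to -0.0212 and 0.0291. With median centring a dim OAS2 probe turned to -0.0178. With a single dye orientation the second IFIH1 probe read -4.64e-04, 2 MX1 probes 0.316 and 0.0643, MX2 0.0604 and USP18 -0.0546. When 1 array was left out, EIF2AK2 ran from -0.292 to 0.0312 and the dim OAS2 probe from -0.279 to 0.342. Over all probes, those past an adjusted p of 0.05 numbered 3 with an offset of 10, 4 in the separate-channel fit, and 0 to 8 when 1 array was left out. Probes past the unadjusted rule numbered 765 with background parameters from all spots and 921 to 3237 when 1 array was left out, against 1979. With median centring 21.2% of them were higher, against 42.5%. Fits with 1 array left out kept the dye term, so the lone array of a dye orientation counted as much as the other 2. The counts of other interferon-induced genes (13 to 16) were added after seeing the data. The fit is itself paired by array, since each ratio already is 1 pair of animals on 1 array. No pairing beyond the shared array was used. The cause of these changes was not tested.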

Other observations

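Among the other interferon-induced genes, 4 had ratios above 0 on arrays 1 to 3 and below 0 on array 4, as ISG15 had, and they were picked after their values were seen. CXCL10, a chemokine that interferon gamma induces, had ratios of 1.199, 1.09, 0.99 and -1.27 on arrays 1 to 4. GBP1, a guanylate-binding protein, had 1.27, 0.45, 0.93 and -0.91, and its 2 other probes had the same sign of the estimate. BST2, or tetherin, which holds budding virus at the cell surface, had 0.54, 1.07, 0.83 and -0.31. IFI44, an interferon-induced protein, had 0.33, 0.67, 0.16 and -0.11, and was well above background in 4 pregnant and 2 cyclic animals. For CXCL10, GBP1 and BST2 the estimates were 0.50 ± 0.37, 0.43 ± 0.23 and 0.53 ± 0.23, with limma adjusted p of 0.684, 0.619 and 0.605. PSMB9 and IFI30 were above 0 on array 4 too, at 0.29 and 0.29.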
